A study of Mus musculus with 24 samples.

Results

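The genes described here are 10 genes of the circadian clock and its output, taken from a table of 27179 gene identifiers: Nr1d1, Nr1d2, Dbp, Tef, Per1, Per2, Per3, Ciart, Arntl and Usp2. All 10 were found in the table. They were chosen because Usp2 and Nr1d2 were lower in group 2 innate lymphoid cells (ILC2) of mice treated with neuromedin U (NMU), so the comparison of NMU with its vehicle in ILC2 chose them and is given for them as a description, without a test. The question put to the other libraries was whether CD4 T cells of the same mice shared that shift.

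RNA was sequenced from cells sorted from the colonic lamina propria of Nmur1iCre-eGFP mice, whose eGFP reports expression of Nmur1, the gene of a receptor for the neuropeptide NMU. Mice of all groups had been exposed to 3% dextran sulfate sodium (DSS), an agent that injures the gut lining, over 5 days, with 3 days of recovery on water. NMU, or phosphate-buffered saline (PBS) as the vehicle, was injected into the peritoneum every other day over that time. Each of 4 NMU mice (mice 1 to 4) and 4 PBS mice (mice 5 to 8) gave 1 library of eGFP+ ILC2, 1 of eGFP+ CD4 T cells (NMUR1+ below) and 1 of eGFP- CD4 T cells (NMUR1- below), so the 6 groups hold 4 libraries each. The labels and the count table's header were followed here in giving each treatment 4 mice; the design text states 3. For age, sex, hour of sampling and lighting schedule, the sources used here give nothing.

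Total counts per library ran from 8485266 to 17854961. The T cell markers Cd3d, Cd3e, Cd3g, Cd4 and Cd5 summed to 20.8 to 144 counts per 1000000 (CPM) in ILC2 libraries and to 2743 to 3993 CPM in CD4 libraries. Transcripts of other cells were present as well. Of all counts, immunoglobulin genes held 0.785% to 30.4% in NMUR1+ libraries, 0.148% to 5.59% in NMUR1- libraries, 0.027% to 0.869% in ILC2 libraries of NMU mice and 0.666% to 7.94% in those of PBS mice. In ILC2 the 6 fibroblast markers summed to 0 to 28.0 CPM in NMU mice, with Lum at 0 in all 4, and to 11.1 to 379 CPM in PBS mice. The 6 macrophage markers summed to 25.5 to 295 CPM in NMU mice and 38.5 to 698 CPM in PBS mice, and the 7 epithelial markers to 38.4 to 65.0 CPM in NMU mice, with Muc2 at 0 in all 4, and 13.6 to 32.2 CPM in PBS mice. In NMUR1+ libraries the macrophage markers summed to 1122.5 to 2096 CPM in NMU mice and 661 to 2102 CPM in PBS mice. In NMUR1- libraries they summed to 214 to 533 CPM in NMU mice and 173 to 751 CPM in PBS mice. In NMUR1+ libraries fibroblast markers reached 144 CPM in NMU mice and 396 CPM in PBS mice, and in NMUR1- libraries 66.4 and 210 CPM. Epithelial markers reached, in the same order, 55.2 and 193 CPM in NMUR1+ libraries and 145 and 173 CPM in NMUR1- libraries. The part of these cells in the results below was not tested.

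The mammalian clock is a transcriptional feedback loop that runs in nearly every cell, lymphocytes included. ARNTL (also called BMAL1) pairs with CLOCK, binds E-box sequences and activates the Per and Cry genes, the Nr1d genes, Ciart, Dbp and Tef; PER, CRY and CIART proteins then inhibit that pair. NR1D1 and NR1D2 (REV-ERB alpha and beta) repress Arntl through RORE sequences, DBP and TEF activate genes with D-box sequences, and in mouse tissues Usp2, which encodes a deubiquitinase, is among the genes whose RNA cycles with the clock.

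The promoter windows of 4 members are printed to show windows with these elements and 1 without them. Each holds 250 bases before and 50 bases after an annotated start of transcription, read 5′ to 3′ on the strand of the gene, from RefSeq on GRCm38.p6, with coordinates counted from 1. Capitals mark exact matches on either strand to an E-box (CACGTG), a D-box (TTATGTAA or TTACGTAA) or the core of a RORE (AGGTCA). Nr1d2 and Usp2 are shown because their values in ILC2 chose the set, Ciart and Per3 because they hold the most E-boxes and D-boxes among the members.
Nr1d2, chr14:18239057-18239356, minus strand: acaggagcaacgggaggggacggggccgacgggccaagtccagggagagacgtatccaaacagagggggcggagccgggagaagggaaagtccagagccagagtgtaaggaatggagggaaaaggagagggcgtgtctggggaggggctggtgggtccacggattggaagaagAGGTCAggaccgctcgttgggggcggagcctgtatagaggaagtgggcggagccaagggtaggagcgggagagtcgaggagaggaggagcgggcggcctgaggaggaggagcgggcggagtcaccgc
Usp2, chr9:44084670-44084969, plus strand: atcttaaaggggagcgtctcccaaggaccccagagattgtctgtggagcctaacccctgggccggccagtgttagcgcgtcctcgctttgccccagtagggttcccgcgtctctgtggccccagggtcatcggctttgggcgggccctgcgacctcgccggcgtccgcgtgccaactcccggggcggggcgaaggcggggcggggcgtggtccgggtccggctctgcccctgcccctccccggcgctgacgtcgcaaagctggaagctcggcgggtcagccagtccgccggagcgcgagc
Ciart, chr3:95882179-95882478, minus strand: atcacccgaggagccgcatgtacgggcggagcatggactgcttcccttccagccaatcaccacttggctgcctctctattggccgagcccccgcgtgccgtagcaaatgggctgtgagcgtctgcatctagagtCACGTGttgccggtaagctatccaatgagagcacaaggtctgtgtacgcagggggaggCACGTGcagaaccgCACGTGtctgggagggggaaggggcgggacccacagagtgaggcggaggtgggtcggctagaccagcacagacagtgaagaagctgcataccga
Per3, chr4:151044616-151044915, minus strand: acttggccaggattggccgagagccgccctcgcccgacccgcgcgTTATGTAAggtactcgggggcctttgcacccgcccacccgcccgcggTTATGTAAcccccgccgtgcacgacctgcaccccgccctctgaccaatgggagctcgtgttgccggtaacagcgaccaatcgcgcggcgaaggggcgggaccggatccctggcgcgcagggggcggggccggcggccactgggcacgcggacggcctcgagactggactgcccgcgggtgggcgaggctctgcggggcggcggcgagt

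RefSeq gave 12 windows for 9 of the 10 members, all except Per2. Ciart held 3 E-boxes, beginning 116, 58 and 44 bases upstream of the start, and Tef and Per1 held E-boxes too, whereas 7.15% of all 32851 mouse windows held at least 1. Per3 held 2 D-boxes, the farther one beginning 205 bases upstream, a motif found in 1.06% of all windows. A RORE core stood 77 bases upstream in Nr1d2, 137 bases upstream in Per1 and 32 bases downstream in 1 of the windows of Arntl, against 16.3% of all windows. The windows of Usp2, Nr1d1 and Dbp held none of these letters. That of Usp2 lies inside the gene, annotated from base 44067021, so the annotated beginning of the gene was not covered. The matches describe the sequence only, and windows of this length leave out distant elements.

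In ILC2, Usp2 had 28.3, 40.6, 43.7 and 46.1 CPM in the 4 NMU mice and 133, 112, 113 and 137 CPM in the 4 PBS mice. Every NMU library was below every PBS library. The mean was 39.7 ± 7.92 CPM in NMU mice and 124.2 ± 13.1 CPM in PBS mice (SD, n = 4 each), a log2 fold change of -1.66 with a standard error (SE) of 0.20. Nr1d2 had 87.4, 114, 106 and 93.4 CPM in NMU mice and 196, 170, 202 and 219 CPM in PBS mice, again without overlap, a log2 fold change of -0.996 (SE 0.15). Both values are those on which the genes were chosen. In RNA from whole populations, fewer cells that express a gene and less RNA per cell cannot be told apart.

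In each of the other 8 members, the NMU and PBS libraries of ILC2 overlapped. Nr1d1, the closest relative of Nr1d2, had 0, 51.9, 29.9 and 42.1 CPM in NMU mice and 70.2, 117, 23.5 and 50.8 CPM in PBS mice. The library of mouse 1 held no count of Nr1d1, which allows up to 0.297 CPM (3 counts), although the same library gave 87.4 CPM of Nr1d2. It also held 0 counts of Dbp and Per3. Counts were found for 10778 genes in that library, against 12111 to 13736 in the other ILC2 libraries. Whether this bears on the value of 0 was not tested. Ciart, the inhibitor of the ARNTL and CLOCK pair, had 4.35, 9.69, 4.72 and 1.07 CPM in NMU mice and 7.67, 22.7, 6.55 and 15.2 CPM in PBS mice. Its log2 fold change was -1.42 (SE 0.75).

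Of the Per genes, which encode inhibitors of the loop, Per1 had 155, 175, 97.1 and 229 CPM in NMU mice and 265, 239, 188 and 197 CPM in PBS mice of the ILC2 group, a log2 fold change of -0.46 (SE 0.23). Per2 and Per3 were at 0 in some ILC2 libraries. Per2 ranged from 0 to 7.43 CPM in NMU mice and from 0 to 7.87 CPM in PBS mice, and Per3 from 0 to 1.35 CPM in NMU mice and from 0.369 to 13.8 CPM in PBS mice. Of the transcription factors of the output, Dbp ranged from 0 to 3.04 CPM in NMU mice and from 1.47 to 19.2 CPM in PBS mice, and Tef from 7.72 to 13.2 CPM in NMU mice and from 4.52 to 24.7 CPM in PBS mice. Arntl, the activator of the loop, had 147, 147, 110 and 111 CPM in NMU mice and 78.9, 111, 183 and 105 CPM in PBS mice, a log2 fold change of 0.08 (SE 0.25).

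As a list, 9 of the 10 members had a log2 fold change below 0 in ILC2, as did 52.3% of the 11205 genes tested. The median was -1.04 over the members and -0.03 over all genes. The number of members whose 4 NMU libraries all lay below the 4 PBS libraries was 2, against 4.78% of all genes. The same 2 members were among the 29 genes called lower by edgeR at an adjusted p under 0.05, 0.259% of genes. Since the set was chosen on this comparison, nothing is read from these counts. The calls over all genes in ILC2 numbered 74 (0.66%), and 12 to 63 when any 1 mouse was left out.

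**Figure D1:**
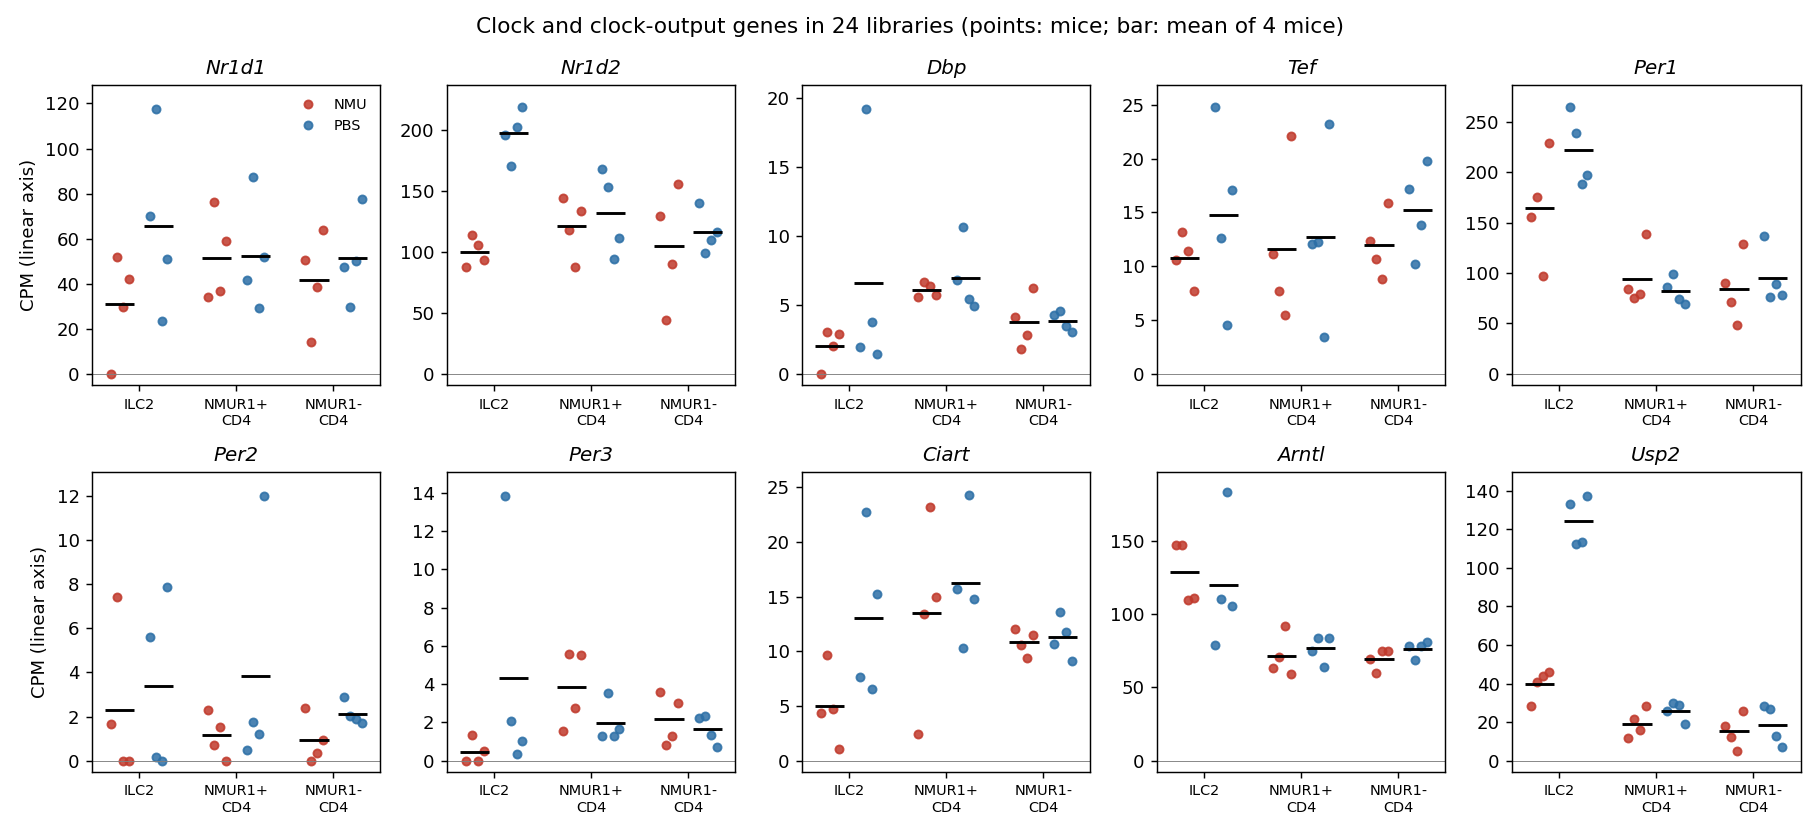
CPM of each of the 10 genes (vertical, linear axes that differ between panels) in every library, by population, with NMU mice (red) left of PBS mice (blue); points are single mice and bars are means of 4 mice. In ILC2, Usp2 and Nr1d2 of NMU mice lie below all PBS mice, while in both CD4 populations the 2 treatments overlap for every gene.

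In CD4 T cells, none of the 10 genes differed between NMU and PBS mice at the threshold. In NMUR1+ cells, Usp2 had 11.6, 21.5, 15.9 and 28.1 CPM in NMU mice and 25.8, 29.8, 28.7 and 19.0 CPM in PBS mice. The treatments overlapped, since the highest NMU library lay above 2 of the PBS libraries. The log2 fold change was -0.42 (95% interval -1.08 to 0.23), with an adjusted p of 1.00 by edgeR's quasi-likelihood test, and ran from -0.67 to -0.25 when 1 mouse was left out. Nr1d2 had 144, 118, 87.7 and 133 CPM in NMU mice and 167.9, 153, 93.9 and 111 CPM in PBS mice of the same population. Its log2 fold change was -0.12 (95% interval -0.59 to 0.34; adjusted p = 1.00, edgeR).

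In NMUR1- cells, Usp2 had 18.0, 12.5, 5.15 and 25.7 CPM in NMU mice and 28.3, 26.7, 12.6 and 7.19 CPM in PBS mice. Its log2 fold change was -0.29 (95% interval -1.51 to 0.93; adjusted p = 0.938, edgeR), and it ran from -0.65 to -0.0047 when 1 mouse was left out, with no call. Here the mice of each group spread more widely than the means differed (15.3 ± 8.67 CPM in NMU mice and 18.7 ± 10.4 CPM in PBS mice, SD, n = 4 each). The lowest value was in mouse 3 of the NMU group and the next in mouse 8 of the PBS group. Nr1d2 had 129, 44.3, 89.6 and 155 CPM in NMU mice and 140, 98.8, 110 and 117 CPM in PBS mice. Its log2 fold change was -0.16 (95% interval -0.88 to 0.56; adjusted p = 0.946, edgeR).

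The other 8 members overlapped between treatments in both CD4 populations as well, as did all except 1.87% of genes in NMUR1+ cells and 4.48% in NMUR1- cells. Arntl averaged 71.4 ± 14.6 CPM in NMU mice and 76.7 ± 9.55 CPM in PBS mice among NMUR1+ cells, and 69.7 ± 7.05 CPM in NMU mice and 76.4 ± 5.46 CPM in PBS mice among NMUR1- cells (SD, n = 4 each). Per1 averaged 94.3 ± 30.0 CPM in NMU mice and 82.1 ± 13.1 CPM in PBS mice among NMUR1+ cells, and 84.5 ± 34.0 CPM in NMU mice and 94.97 ± 28.3 CPM in PBS mice among NMUR1- cells. Nr1d1 ranged from 14.1 to 76.5 CPM in the 8 CD4 libraries of NMU mice and from 29.1 to 87.4 CPM in those of PBS mice, with no library at 0. Over the members, log2 fold changes ran from -1.77 (Per2) to 0.97 (Per3) in NMUR1+ cells and from -1.22 (Per2) to 0.38 (Per3) in NMUR1- cells.

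Counting directions, 8 of 10 members had a log2 fold change below 0 in NMUR1+ cells and 9 of 10 in NMUR1- cells, against 49.2% and 48.7% of all genes in those comparisons. Their medians were -0.13 in NMUR1+ cells and -0.17 in NMUR1- cells, against 0.00 and 0.01 over all genes. The members are not independent of each other, and both CD4 libraries of a mouse come from 1 animal. No gene at all was called in either population (0% of 12061 and 0% of 12103 genes). At an unadjusted p under 0.05 there were 307 genes (2.55%) in NMUR1+ cells and 877 genes (7.25%) in NMUR1- cells, none of them members, and DESeq2 called 2 and 21 genes, none of them members.

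Adding the counts of both CD4 libraries of each mouse gave 8 deeper profiles, with the mouse as the replicate. Usp2 then had 15.7, 17.2, 10.49 and 26.7 CPM in NMU mice and 27.4, 28.5, 19.8 and 11.2 CPM in PBS mice. Its log2 fold change was -0.31 (95% interval -1.08 to 0.45; adjusted p = 0.934, edgeR), with a range of -0.58 to -0.13 when 1 mouse was left out. Nr1d2 had 135, 82.7, 88.7 and 146.02 CPM in NMU mice and 150, 129, 103 and 115 CPM in PBS mice, a log2 fold change of -0.14 (95% interval -0.59 to 0.31; adjusted p = 0.961, edgeR). The treatments overlapped for both genes. The 2 members with the smallest p were Per2, at -1.34 (95% interval -2.75 to 0.07), and Per3, at 0.74 (95% interval -0.17 to 1.65), both with an adjusted p of 0.907 by edgeR. Per2 rested on 1.06 ± 0.898 CPM in NMU mice and 2.65 ± 1.70 CPM in PBS mice, and Per3 on 3.06 ± 0.852 CPM in NMU mice and 1.82 ± 0.862 CPM in PBS mice (SD, n = 4 each). None of 13238 genes was called (0%), with 5.18% of genes at an unadjusted p under 0.05 and 10 called by DESeq2, none of them members.

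**Figure D2:**
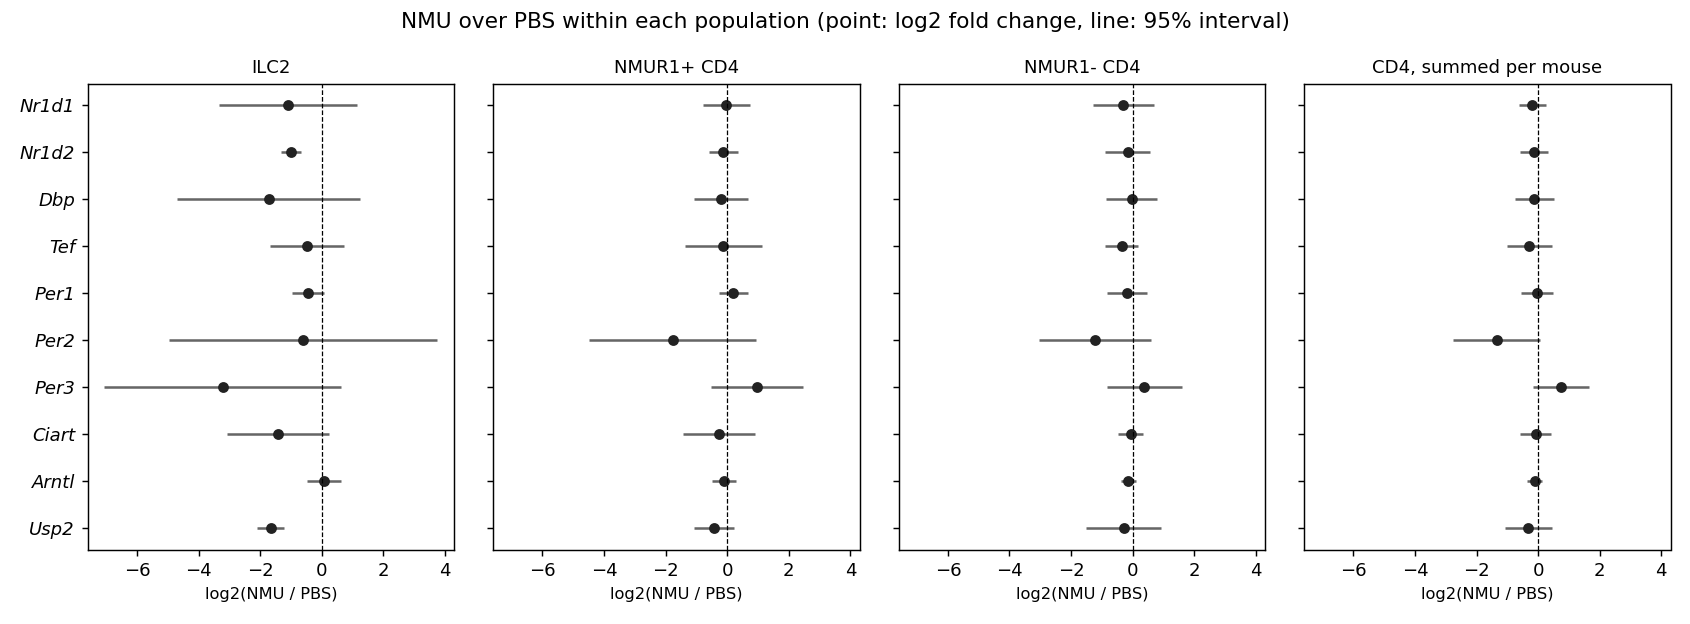
Log2 fold change of NMU over PBS (horizontal) for the 10 genes in ILC2, NMUR1+ CD4 T cells, NMUR1- CD4 T cells and both CD4 libraries summed per mouse; points are edgeR estimates and lines 95% intervals, and the ILC2 panel is the comparison on which the genes were chosen. Intervals in the 3 CD4 panels all cross 0, and for summed CD4 cells those of Usp2 and Nr1d2 end at -1.08 and -0.59.

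Whether the NMU effect in ILC2 differed from that in CD4 T cells was tested in 1 fit of all 24 libraries. No member passed. This test uses the ILC2 values that chose the genes, so only its T cell side is independent. For Usp2 the effect in ILC2 minus the effect in NMUR1+ cells was -1.22 on the log2 scale (SE 0.55; 95% interval -2.37 to -0.08; adjusted p = 0.333, edgeR), and minus the effect in NMUR1- cells -1.36 (SE 0.55; 95% interval -2.50 to -0.21; adjusted p = 0.316, edgeR). For Nr1d2 these differences were -0.85 (SE 0.36; 95% interval -1.60 to -0.10; adjusted p = 0.297, edgeR) and -0.83 (SE 0.36; 95% interval -1.58 to -0.08; adjusted p = 0.366, edgeR). Per3 differed by -4.20 and -3.61 (adjusted p = 0.219 and 0.345, edgeR), values that became -2.16 and -1.88 without mouse 5. Over all 13509 genes, 98 (0.725%) and 72 (0.533%) passed in these comparisons, and 46 and 36 in fits with a term for each mouse as the replicate block, in which no member passed. For Arntl the differences were 0.21 and 0.24, with 95% intervals of -0.36 to 0.78 and -0.33 to 0.81.

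Ratios within a library do not depend on its scaling. The ratio of Nr1d2 to Arntl CPM in ILC2 was 0.593, 0.771, 0.962 and 0.844 in NMU mice and 2.48, 1.54, 1.10 and 2.08 in PBS mice, without overlap. In NMUR1+ cells it was 2.28, 1.66, 0.952 and 2.25 in NMU mice and 2.23, 1.83, 1.47 and 1.33 in PBS mice, and in NMUR1- cells 1.87, 0.740, 1.20 and 2.07 in NMU mice and 1.79, 1.44, 1.41 and 1.44 in PBS mice. The NMU mice thus spread both above and below the PBS mice in the T cells. The ratio of Usp2 to Arntl ran from 0.192 to 0.417 in ILC2 of NMU mice and from 0.618 to 1.69 in ILC2 of PBS mice, and overlapped in both CD4 populations. The ILC2 ratios contain the values that chose the genes and are a description.

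**Figure D3:**
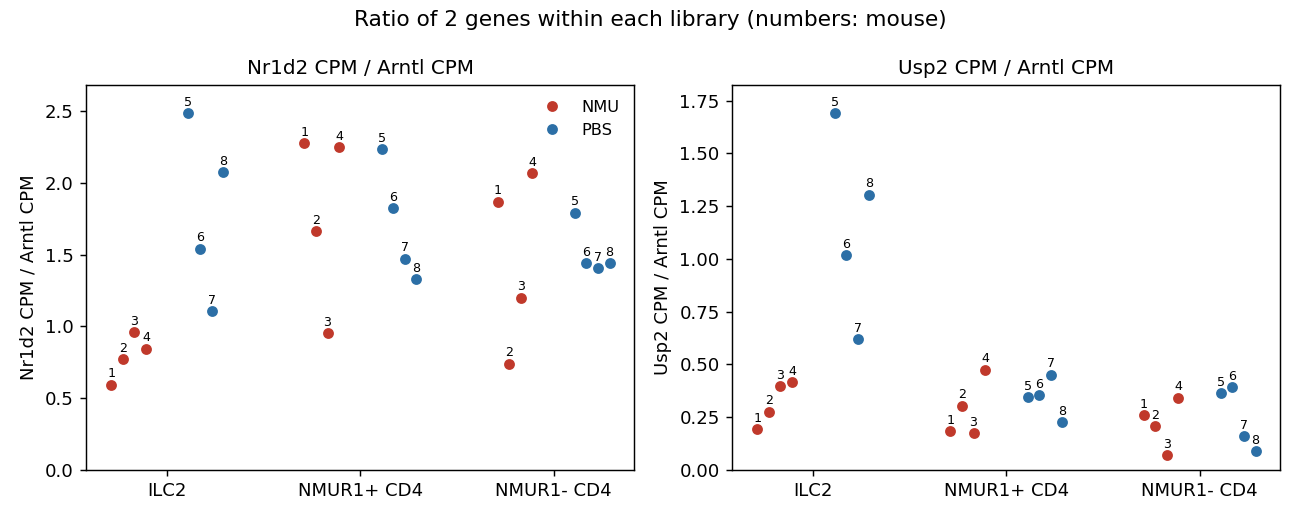
Ratio of Nr1d2 to Arntl CPM (left) and of Usp2 to Arntl CPM (right) in each library, with NMU mice (red) left of PBS mice (blue) and the mouse number above each point. In ILC2 the 4 NMU mice lie below the 4 PBS mice in both ratios (0.593 to 0.962 and 1.10 to 2.48 for Nr1d2), and in both CD4 populations the treatments overlap.

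Comparing the populations over both treatments, 3 members were higher in ILC2 than in CD4 T cells. The ILC2 values of Usp2 and Nr1d2 chose the set, so only the T cell side is independent for these 2 genes. Usp2 averaged 81.9 ± 46.3 CPM in ILC2, 22.6 ± 6.66 CPM in NMUR1+ cells and 17.0 ± 9.07 CPM in NMUR1- cells (SD, n = 8 each). Its log2 difference was 1.65 (SE 0.28; adjusted p = 6.5e-05, edgeR) against NMUR1+ cells and 2.05 (SE 0.29; adjusted p = 4e-06, edgeR) against NMUR1- cells. Within each treatment the ILC2 values also stood above those of NMUR1+ cells. In NMU mice they were 28.3 to 46.1 CPM in ILC2 and 11.6 to 28.1 CPM in NMUR1+ cells, and in PBS mice 112 to 137 CPM in ILC2 and 19.0 to 29.8 CPM in NMUR1+ cells.

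Per1, which is also an immediate-early gene, averaged 193 ± 52.8 CPM in ILC2, 88.2 ± 22.4 CPM in NMUR1+ cells and 89.7 ± 29.5 CPM in NMUR1- cells. The log2 differences were 1.12 (SE 0.20) against NMUR1+ cells and 1.09 (SE 0.20) against NMUR1- cells, with adjusted p of 8.6e-05 and 9.5e-05 by edgeR. Arntl averaged 124.2 ± 32.9 CPM in ILC2, 74.0 ± 11.8 CPM in NMUR1+ cells and 73.0 ± 6.85 CPM in NMUR1- cells, with log2 differences of 0.75 and 0.77 (SE 0.14 each; adjusted p = 0.000163 and 0.000105, edgeR). Over both treatments the lowest ILC2 library lay below the highest NMUR1+ library for all 3 genes (28.3 and 29.8 CPM for Usp2, 97.1 and 139 CPM for Per1, 78.9 and 92.1 CPM for Arntl). These 3 of 10 members stand against 15.1% of all genes called higher in ILC2 than in NMUR1+ cells and 16.4% called higher than in NMUR1- cells. Usp2, 1 of these 3, was chosen on its ILC2 values. No member was called lower in ILC2, where 23.5% and 24.1% of all genes were.

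Nr1d2 did not pass between populations. Its mean was 148 ± 54.0 CPM in ILC2, 126 ± 28.4 CPM in NMUR1+ cells and 110 ± 34.2 CPM in NMUR1- cells, and its difference against NMUR1- cells, 0.35 (95% interval -0.03 to 0.72; adjusted p = 0.133, edgeR), passed only when mouse 4 was left out (0.52, adjusted p = 0.0363). Ciart averaged 8.998 ± 6.95 CPM in ILC2 and 14.9 ± 6.91 CPM in NMUR1+ cells (adjusted p = 0.0777, edgeR), and the difference passed when mouse 1, 2 or 6 was left out (adjusted p = 0.0365, 0.0439 and 0.0442). The other 5 members, Nr1d1, Dbp, Tef, Per2 and Per3, had 95% intervals that held 0 in every comparison of populations. Between NMUR1+ and NMUR1- cells no member passed, against 8.31% of all genes. The log2 differences ran from -0.15 (Tef) to 0.78 (Dbp), with Arntl at 0.02 (95% interval -0.27 to 0.31) and Usp2 at 0.40 (95% interval -0.17 to 0.97).

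**Figure D4:**
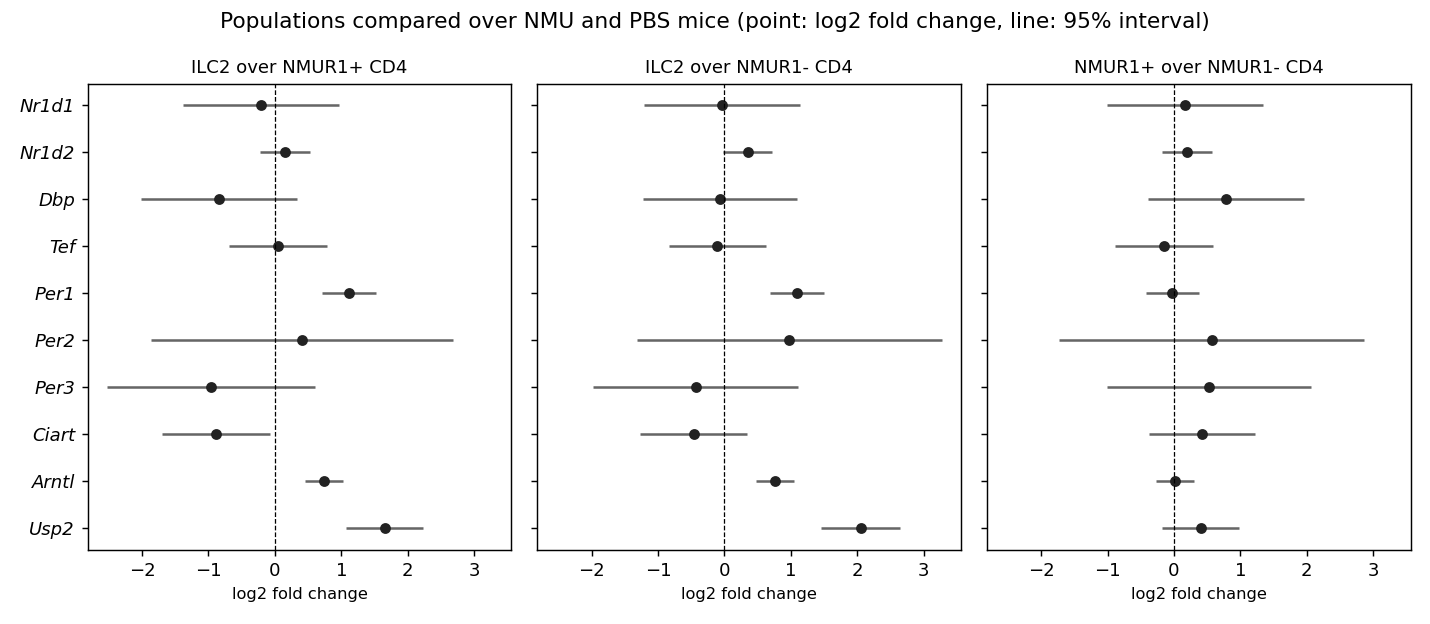
Log2 fold change between populations (horizontal), averaged over NMU and PBS mice, for the 10 genes; points are edgeR estimates and lines 95% intervals. Usp2, Per1 and Arntl lie above 0 in both comparisons of ILC2 with CD4 T cells (1.65, 1.12 and 0.75 against NMUR1+ cells), and all 10 intervals include 0 between the CD4 populations.

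Variation between mice of 1 group differed among the members. The coefficient of variation in ILC2 was 11.8% in NMU mice and 10.2% in PBS mice for Nr1d2, and 19.97% in NMU mice and 10.55% in PBS mice for Usp2. For Nr1d1 it was 72.8% in NMU mice and 60.4% in PBS mice. After subtraction of each population's mean, Nr1d1 and Dbp went together over the 24 libraries (Pearson r = 0.85), and Nr1d2 and Usp2 less closely (r = 0.60). Nr1d1 and Dbp had r = 0.87 in ILC2, 0.62 in NMUR1+ cells and 0.62 in NMUR1- cells. Both were at 0 counts in the ILC2 library of mouse 1, which weighs on the values over ILC2 and over 24 libraries. Within populations the pair of Nr1d2 and Usp2 had r = 0.97 in ILC2, 0.16 in NMUR1+ cells and 0.37 in NMUR1- cells (8 libraries each). In ILC2 that value includes the difference between treatments for which both were chosen. Nr1d1 and Nr1d2 had r = 0.53 in ILC2, 0.39 in NMUR1+ cells and 0.89 in NMUR1- cells. Nr1d2 and Arntl had r = -0.21 in ILC2, -0.21 in NMUR1+ cells and 0.76 in NMUR1- cells, and Tef and Arntl had r = -0.79 in ILC2, -0.030 in NMUR1+ cells and 0.63 in NMUR1- cells. These values describe libraries that share mice and treatments.

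The other clock genes were read as lists. Of 21 further genes of the clock loop, 18 were tested in ILC2 and none passed between NMU and PBS. At an unadjusted p under 0.05 there were 7 of these 18, against 12.4% of all genes in ILC2. Their median log2 fold change was 0.20, against -0.03 over all genes. The smallest p belonged to Cipc, an inhibitor of CLOCK, with 41.9 ± 14.6 CPM in NMU mice and 112 ± 34.3 CPM in PBS mice (log2 -1.44; adjusted p = 0.0658, edgeR). Next was Bhlhe40, a repressor that competes at E-boxes, with 2886 ± 267 CPM in NMU mice and 2114 ± 145 CPM in PBS mice (log2 0.43; adjusted p = 0.103, edgeR). Cipc passed with DESeq2 (adjusted p = 0.000395), without a filter on low counts (0.0413) and in the fit of 24 libraries (0.0056), and Bhlhe40 with DESeq2 (0.00146). In summed CD4 cells these genes stood at -0.15 and 0.14. Of the 21 genes, 19 were tested in NMUR1+ cells, 17 in NMUR1- cells and 20 in summed CD4 cells, and none passed. None of the 19 tested passed in the differences between effects. An unadjusted p under 0.05 was found for 0 genes in NMUR1+ cells, 2 in NMUR1- cells and 2 in summed CD4 cells. The shares of all genes were 2.55%, 7.25% and 5.18% in the same order. In both cases the 2 were Npas2 and Cry1, lower in NMU mice. Their log2 fold changes were -1.49 and -0.42 in NMUR1- cells (adjusted p = 0.577 and 0.588, edgeR). In summed CD4 cells they were -1.25 and -0.42 (adjusted p = 0.907 each, edgeR).

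Between populations more of these genes differed. Against NMUR1+ cells, 6 of 19 tested were higher in ILC2 and 2 were lower, and against NMUR1- cells 7 were higher and 5 lower. Of all genes, 15.1% were higher and 23.5% lower against NMUR1+ cells, and 16.4% higher and 24.1% lower against NMUR1- cells. Hlf, a relative of Dbp and Tef that binds D-boxes, averaged 113 ± 35.9 CPM in ILC2, 33.2 ± 12.4 CPM in NMUR1+ cells and 18.1 ± 12.6 CPM in NMUR1- cells. Npas2, a stand-in for CLOCK, averaged 8.06 ± 6.06 CPM in ILC2, 1.11 ± 1.19 CPM in NMUR1+ cells and 1.78 ± 0.982 CPM in NMUR1- cells. The call of Npas2 against NMUR1- cells did not pass with the replicate block (adjusted p = 0.187) or without mouse 2, 3, 4, 6, 7 or 8 (0.0514 to 0.12). Fbxl21, a ubiquitin ligase subunit that acts on CRY proteins, averaged 22.3 ± 18.9 CPM in ILC2, 1.94 ± 1.87 CPM in NMUR1+ cells and 0.279 ± 0.311 CPM in NMUR1- cells. Its ILC2 mean pools unlike treatments, with 1.19 to 9.69 CPM in NMU mice and 16.8 to 50.0 CPM in PBS mice. That NMU difference in ILC2 did not pass (log2 -2.38, adjusted p = 0.118, edgeR). Among those lower in ILC2, Cry1, an inhibitor of the loop, averaged 34.9 ± 20.6 CPM in ILC2 and 91.2 ± 18.4 CPM in NMUR1- cells, and Timeless 8.37 ± 4.71 CPM in ILC2 and 24.5 ± 6.52 CPM in NMUR1- cells. Bhlhe41, a paralog of Bhlhe40, was lower in ILC2 in both comparisons, at levels of 0.069 ± 0.196 CPM in ILC2, 1.64 ± 1.57 CPM in NMUR1+ cells and 0.381 ± 0.189 CPM in NMUR1- cells; against NMUR1- cells it did not pass without mouse 1 or 5 (adjusted p = 0.0587 and 0.0621). Between the CD4 populations, Fbxl21 and Nfil3 were higher in NMUR1+ cells, Fbxl21 not with the replicate block (adjusted p = 0.0759) or without mouse 1, 2, 4, 5, 6 or 7 (0.0578 to 0.162). Nfil3, a repressor at D-boxes, averaged 320 ± 42.0 CPM in NMUR1+ cells and 184 ± 74.2 CPM in NMUR1- cells (log2 0.80; adjusted p = 0.00647, edgeR).

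Further lists hold genes that respond to signals known to set clocks, namely glucocorticoids, temperature and cyclic AMP through CREB, and other outputs of the clock. Of 8 other output genes none passed between NMU and PBS in ILC2, with Coq10b at -0.48 and Tsc22d3 at -0.60 on the log2 scale (adjusted p = 0.112 and 0.35, edgeR). Coq10b passed with DESeq2 (adjusted p = 0.00354). The median of these 8 genes was -0.29, against -0.03 over all genes. Of the 8, 2 had an unadjusted p under 0.05, against 12.4% of all genes. Tsc22d3, 1 of these 2, is also among the glucocorticoid targets and counts in both lists. Of 11 tested glucocorticoid targets none passed in ILC2, and 5 had an unadjusted p under 0.05, against 12.4% of all genes. Their median log2 fold change was -0.35, against -0.03 over all genes. Zbtb16, a transcription factor of this list, ranged from 0 to 1.69 CPM in NMU mice and from 7.85 to 17.6 CPM in PBS mice, without overlap (adjusted p = 0.176, edgeR; 0.0429 in the fit of 24 libraries). Mt1, a metallothionein, ranged from 0.838 to 2.70 CPM in NMU mice and from 6.65 to 8.50 CPM in PBS mice of the ILC2 group, a difference that passed in the fit of 24 libraries (adjusted p = 0.00128), while DESeq2 gave it no adjusted p. Its NMU effect differed between ILC2 and both CD4 populations, by -2.03 against NMUR1+ cells and -2.08 against NMUR1- cells (adjusted p = 0.044 and 0.046, edgeR). That of Mt2, at 0 counts in all 4 ILC2 libraries of NMU mice and 0.232 to 1.29 CPM in those of PBS mice, passed against NMUR1+ cells only (adjusted p = 0.0427 and 0.103, edgeR). None of these 3 calls passed with the replicate block (edgeR adjusted p = 0.0829 and 0.083 for Mt1 and 0.147 for Mt2). The same held without a filter on low counts (edgeR adjusted p = 0.0737 and 0.0775 for Mt1 and 0.0794 for Mt2). None passed without any 1 mouse other than mouse 2 (adjusted p from 0.064 to 0.155).

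Of 8 genes that respond to temperature none passed in ILC2, and 5 had an unadjusted p under 0.05, against 12.4% of all genes. The median of these genes was -0.52, against -0.03 over all genes. Hsp90aa1 and Hspa8, both chaperones, stood at -0.50 and -0.40 (adjusted p = 0.133 and 0.155, edgeR). Both passed with DESeq2 (adjusted p = 0.0129 and 0.0201) and in the fit of 24 libraries (0.0253 and 0.0457). Of 11 CREB targets 1 passed in ILC2, as did 0.66% of all genes. It was Junb, an AP-1 subunit, with 8585 ± 890 CPM in NMU mice and 13696 ± 1033 CPM in PBS mice (log2 -0.69, adjusted p = 0.0169, edgeR). That call did not pass in the fit of 24 libraries (adjusted p = 0.291) or without mouse 3, 4, 5 or 8 (adjusted p from 0.0537 to 0.0629). The median of that list was -0.69, against -0.03 over all genes, and 6 of its genes had an unadjusted p under 0.05, against 12.4% of all genes. In summed CD4 cells the medians were 0.01 for the temperature genes, -0.10 for the CREB targets, -0.06 for the glucocorticoid targets and 0.04 for the other outputs, and no gene of any list passed in NMUR1+, NMUR1- or summed CD4 cells.

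Last, the genes whose pattern was most like that of a member were sought among 12196 genes over the 24 libraries, with each population's mean subtracted. For Usp2 these were Nr4a3 (r = 0.85), Cyth2 (0.84), Srrm2 (0.83), Nr3c1 (0.83), which encodes the glucocorticoid receptor, and Ppp1r15a (0.83). For Nr1d2 they were Mdfic (0.82), Niban1 (0.80), Kansl3 (0.80), Ivns1abp (0.80) and Sik1 (0.79). For Arntl they were Abcb10, Trmt44, Eif4ebp2, Washc1 and Ercc8, with r from 0.70 to 0.72. The first of each kept its sign within populations, Nr4a3 having r = 0.86 in ILC2, 0.67 in NMUR1+ cells and 0.92 in NMUR1- cells with Usp2. The libraries share mice, treatments and scaling, and these values are a description.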

How the data were processed

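The deposited table holds raw read counts, as whole numbers, for each gene identifier in each library. The RNeasy Micro Kit and the NEBNext Single Cell/Low Input kit served for RNA and libraries, per the labels' protocols. The submitters' processing notes name STAR 2.5.3 and mm10. How reads were counted, on which annotation and with what use of strand is not given in the sources used here. Without strand or molecular identifiers, overlapping antisense transcripts cannot be separated, and limits from a count of 0 (3 counts) cover counting error only. Identifiers were matched to symbols through RefSeq of GRCm38.p6 (25275 of 27179).

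Tests across all genes used edgeR 4.0.16 (R 4.3.3; filterByExpr with a minimum count of 10, TMM scaling, robust quasi-likelihood fits, Benjamini-Hochberg adjustment over all genes tested, threshold 0.05). NMU was compared with PBS on the 8 libraries of a population or on the CD4 counts summed per mouse; populations and differences between effects came from a fit of 24 libraries with a mean per group. CPM use TMM sizes over 24 libraries (factors 0.719 to 1.16). The procedure was run on simulated data with known changes, many of which it missed. Alternatives were DESeq2 1.42.0, its size factors in edgeR, no filter, immunoglobulin genes left out, each mouse left out, all 24 libraries in 1 fit and a term for each mouse.

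The members, lists and the rule for named genes (all members; list genes past the threshold or with the smallest p, and up to 3 per direction between populations; the 5 most correlated genes for Usp2, Nr1d2 and Arntl) were chosen with earlier results of these data known. The values of 1 list gene that met this rule are not reported here. No pair of replicate libraries agreed within sampling noise (lowest chi-square per degree of freedom 15.5 over 36 pairs), and each label names a separate mouse. The same mouse gave all 3 populations, so libraries are paired by animal; deviations from group means correlated across populations with a median r of 0.04 to 0.22.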

Additional observations from a re-analysis of the deposited data

Results flagged for a closer look

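Within each group of 4 libraries, a value was singled out when its gap to the nearest other value exceeded Dixon's 95% critical share of the range of the group, which chance does in about 1 of 20 groups. Of 60 such sets over the 10 genes and 6 groups, 5 met it. In ILC2 of PBS mice, Dbp stood at 19.2 CPM in mouse 6, with the other 3 libraries at 1.47 to 3.78 CPM, and Per3 at 13.8 CPM in mouse 5, with the others at 0.369 to 2.06 CPM. In NMUR1+ cells of NMU mice, Per1 stood at 139 CPM in mouse 4, with the others at 74.9 to 83.8 CPM. In NMUR1+ cells of PBS mice, Per2 stood at 11.99 CPM in mouse 8, with the others at 0.467 to 1.74 CPM, and Per3 at 3.53 CPM in mouse 6, with the others at 1.29 to 1.64 CPM. The causes were not tested.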

How the results depend on the processing

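Over the 10 genes, 1160 values were recomputed under the alternatives. Of these, 1084 kept direction and, where an adjusted p was given, side of the threshold. A further 67 changed sign, and 4 and 5 moved to the passing and failing side. In CD4 T cells no member passed between NMU and PBS under any alternative. Usp2 in ILC2 passed all 13 alternatives, and Nr1d2 missed without mouse 3, 4, 5, 7 or 8 (edgeR adjusted p from 0.0609 to 0.0747, log2 -1.02 to -0.94). Both genes were chosen on that comparison of NMU with PBS, so its passes and misses are a description and no test. Usp2 and Nr1d2 in ILC2, and Usp2, Per1 and Arntl in ILC2 against either CD4 population, the comparisons in which members passed, kept their sign under every alternative run. The causes were not tested.

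Gene counts moved more. DESeq2 called 472 genes between NMU and PBS in ILC2 and 2, 21 and 10 in NMUR1+, NMUR1- and summed CD4 cells, and 516 and 387 for the differences between effects (against NMUR1+ and against NMUR1- cells). A fit of all 24 libraries called 1053 in ILC2. No filter gave 54 for the difference against NMUR1+ cells. With the replicate block, where libraries are paired by mouse, the differences gave 46 and 36, and the block changed the call of no member. Leaving out 1 mouse gave 12 to 63 in ILC2 (more than 1.5 times below 74 without mouse 2, 3, 4, 5, 6, 7 or 8), 0 to 1 in NMUR1+ cells (1 without mouse 2), 30 to 106 for the difference against NMUR1+ cells (low without any mouse but 2), 20 to 83 for that against NMUR1- cells (low without mouse 1, 4, 5 or 8) and 609 to 1035 between the CD4 populations (low without mouse 3, 7 or 8).

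With the block, Tef stood at 0.23 for the difference against NMUR1- cells, Per2 at -0.38 and -0.56 for ILC2 against NMUR1+ and NMUR1- cells, and Nr1d1 at -0.013, Per1 at 0.011 and Per2 at -0.18 between the CD4 populations, where DESeq2 gave 0.0042 and its size factors 0.0041 for Per1. When 1 mouse was left out, signs changed within these log2 ranges. In ILC2 they were -2.64 to 0.24 for Per2 and -0.062 to 0.37 for Arntl. In NMUR1+ cells they were -0.28 to 0.34 for Nr1d1, -0.26 to 0.0084 for Nr1d2, -0.33 to 0.087 for Dbp, -0.67 to 0.32 for Tef, -0.059 to 0.30 for Per1 and -0.65 to 0.076 for Ciart. In NMUR1- cells they were -0.40 to 0.090 for Nr1d2, -0.39 to 0.19 for Dbp, -0.44 to 0.041 for Per1 and -0.15 to 0.053 for Ciart, and in summed CD4 cells -0.27 to 0.15 for Dbp, -0.28 to 0.11 for Per1 and -0.23 to 0.079 for Ciart. The differences between effects ran from -0.70 to 0.31 for Tef and -1.06 to 1.84 for Per2 against NMUR1+ cells, and from -0.37 to 0.19 and -1.85 to 1.79 against NMUR1- cells. ILC2 against NMUR1+ cells gave -0.13 to 0.38 for Tef and -0.66 to 0.86 for Per2, and against NMUR1- cells -0.36 to 0.25 for Nr1d1, -0.74 to 0.19 for Dbp, -0.25 to 0.069 for Tef and -0.25 to 1.58 for Per2. Between the CD4 populations they were -0.14 to 0.32 for Nr1d1, -0.16 to 0.073 for Per1, -0.34 to 0.84 for Per2 and -0.066 to 0.097 for Arntl.

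Per2, Per3 and Dbp rest on few counts, and the intervals of a gene at 0 in some libraries are wide. With 4 mice per group, a missed threshold does not show that values did not differ, and the interval for Usp2 in summed CD4 cells reaches -1.08.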
